A study of Mus musculus with 8 samples.

Results

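The 8 genes described here encode parts of antibodies: Igkc, Iglc1, Iglc2 and Iglc3 the constant regions of the kappa and lambda light chains, Ighm, Ighd and Igha those of the heavy chains of IgM, IgD and IgA, and Jchain the small protein that joins IgA or IgM units. They were taken by symbol, 8 of the 32285 genes counted, and each symbol matched 1 gene. The genes were chosen by their measured levels in these same data, which were high in B cells, in a few single barcodes and in a few spots, so those values are given as a description. The study followed pressure overload of the heart in male C57BL/6J mice, wild type and 8 weeks old at surgery, by transverse aortic constriction (TAC), in which a suture narrows the aortic arch. Hearts were taken after 2 weeks (TAC-2w), 4 weeks (TAC-4w) or 6 weeks (TAC-6w). The comparison is with sham mice, which had the same operation without the ligature and whose week of harvest the labels do not give. Each condition had 1 single-cell library and 1 spatial section, so no difference between conditions could be set against a spread between animals, no p-value is given, and every interval covers counting error only. The labels do not say how many mice went into a library. Among the libraries sham and TAC-6w carry the batch label 3, TAC-2w carries 1 and TAC-4w carries 2. Among the sections sham and TAC-2w carry the label 1, TAC-4w carries 2 and TAC-6w carries 3. Condition and batch label therefore cannot be told apart in any comparison with sham other than TAC-6w among the libraries and TAC-2w among the sections.

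An antibody pairs heavy chains with light chains, and each B cell as a rule uses either kappa or lambda. A resting B cell displays IgM and IgD made from 1 transcript by alternative splicing, and it can later switch the constant region to IgG, IgA or IgE. Plasma cells, the antibody-secreting end stage, devote much of their transcription to immunoglobulin, lose surface B cell genes such as Ms4a1 and, where they secrete IgA or IgM, also make the joining chain.

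On the GRCm38.p6 assembly (mm10), RefSeq places Igkc at chr6:70726435-70726754, at the end of the kappa locus. The heavy-chain constant genes lie in 1 cluster on chromosome 12, with Ighm at chr12:113418826-113422730, Ighd at chr12:113407535-113416324 and Igha at chr12:113256204-113260236. The lambda genes lie on chromosome 16, with Iglc1 at chr16:19061752-19062071, Iglc3 at chr16:19065365-19065681 and Iglc2 at chr16:19198536-19198852. Jchain, which is not part of an antibody locus, lies at chr5:88519809-88527897. Iglc2 and Iglc3 are near-identical copies, so the split of molecules between them is uncertain, and Ighd is spliced from a transcript that also holds Ighm.

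The libraries held between 28793316 and 86671674 molecules, counted as unique molecular identifiers (UMIs), in 5854 to 10275 barcodes, of which 5399 to 7965 were kept as single cells. The sections held 1228 to 2193 spots, each of which covers a small region of several cells. Levels are UMIs per 1000000 UMIs (CPM) of the cells or the section named. They count molecules and are not divided by gene length. The labels describe isolated nuclei and the methods a suspension of cells, and the barcodes are called cells here. The TAC-4w library differed from the others in make-up, with 553 platelet-like cells against 11 to 54, 1263 neutrophil-like cells against 72 to 196, and 426 fibroblast-like cells against 2865 to 4445. Only 216 kept cells in all were cardiomyocyte-like, the cell type that defines the heart muscle. Of 32353 barcode sequences, 120 occurred in more than 1 library.

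A cell was counted as a B cell where Cd79a and Cd79b, the signalling partners of the surface antibody, and Ms4a1, the B cell surface protein CD20, together had at least 5 UMIs. This gave 230 B cells in sham, 153 in TAC-2w, 2457 in TAC-4w and 632 in TAC-6w. They made up 2.89% of the kept cells in sham, 2.43% in TAC-2w, 37.6% in TAC-4w and 11.7% in TAC-6w. A clustering that used no immunoglobulin gene put 94.8% of them into B-like clusters in sham, 94.8% in TAC-2w, 95.9% in TAC-4w and 96.8% in TAC-6w. Among the TAC-4w B cells, 5 were barcodes of very high immunoglobulin content, which are described separately, and the levels that follow leave them out. The median B cell held 3157.5 UMIs in sham, 3720 in TAC-2w, 4434 in TAC-4w and 2039 in TAC-6w.

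The 8 genes together had nearly the same level in the B cells of 3 libraries and a somewhat higher one in TAC-4w. Their summed level was 13367 CPM in sham, 13200 CPM in TAC-2w, 15633 CPM in TAC-4w and 13666 CPM in TAC-6w. The ratio to sham was 0.987 (95% interval 0.961 to 1.02) in TAC-2w, 1.17 (1.15 to 1.19) in TAC-4w and 1.02 (0.999 to 1.05) in TAC-6w. With the very high barcodes counted as B cells, the TAC-4w ratio was 1.31 (1.29 to 1.34). Genes of other cells were also present among these UMIs. The 6 fibroblast markers, all detected in each library, summed to 2194 CPM in sham, 1412 CPM in TAC-2w, 563 CPM in TAC-4w and 1012 CPM in TAC-6w. The 6 macrophage markers, all detected too, summed to 765, 748, 53.9 and 270 CPM in the same order. The neutrophil markers went the other way, at 8.98, 13.5, 4251 and 2493 CPM, and 76.4% of the TAC-4w B cells held such a UMI. The T cell markers were at 12.3, 79.3, 59.3 and 12.9 CPM. In the B cells without any macrophage marker UMI, the 8 genes stood at 13976 CPM in sham, 14287 CPM in TAC-2w, 15762 CPM in TAC-4w and 14570 CPM in TAC-6w, so that TAC-4w was the highest there as well.

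No member with enough UMIs to be measured differed by a factor of 2 or more from sham in the B cells of any TAC library. Of the members with at least 50 UMIs in either sum, 0 of 6 did so in TAC-2w, where 4.86% of all genes measured did, 0 of 7 in TAC-4w, where 13.0% did, and 0 of 6 in TAC-6w, where 9.89% did. The median ratio of the measured members was 0.973, 1.23 and 0.879 in time order, against 1.01, 1.07 and 0.852 over all genes measured. Jchain fell under this minimum in each library and Igha in TAC-2w and TAC-6w.

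Igkc, the constant region of kappa light chains, was at 7556 CPM in sham, 7892 CPM in TAC-2w, 9331 CPM in TAC-4w and 8683 CPM in TAC-6w. The TAC-4w level was the highest and TAC-6w came next, with intervals that did not overlap, whereas the intervals of sham and TAC-2w did. The range between cells was wide, since the median B cell of TAC-4w held 42 Igkc UMIs and the highest 313. Ighm, the IgM heavy chain, was at 2093 CPM in sham, 2191 CPM in TAC-2w, 2568 CPM in TAC-4w and 1855 CPM in TAC-6w. TAC-4w was again the highest, and TAC-6w was the lowest. Ighd, the IgD heavy chain, had the largest difference upward among the well-counted members, with 624 CPM in sham, 606 CPM in TAC-2w, 964 CPM in TAC-4w and 533 CPM in TAC-6w. Its ratio to sham was 0.972 in TAC-2w, 1.54 (1.42 to 1.69) in TAC-4w and 0.855 (0.766 to 0.955) in TAC-6w. The 2 libraries that share a batch label, sham and TAC-6w, differed for Igkc by a ratio of 1.15 and for Ighm by a ratio of 0.887. Their B-like cells lay mostly in different clusters. A B-like cluster with a median of 1940.5 UMIs per cell held 51 cells of sham and 807 of TAC-6w. Another, with a median of 4237 UMIs, held 176 and 102. The comparison within this batch label thus sets B cells of unlike clusters and depth against each other.

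The lambda genes moved less evenly. Iglc1, the constant gene of lambda 1 chains, was at 1002 CPM in sham, 723 CPM in TAC-2w, 732 CPM in TAC-4w and 593 CPM in TAC-6w, so that sham was the highest of the 4. Its ratio to sham was 0.722 (0.645 to 0.807), 0.731 (0.682 to 0.784) and 0.591 (0.538 to 0.650) in time order. From sham to TAC-6w in time order, Iglc2 was at 1444, 1159, 1267 and 1259 CPM and its near copy Iglc3 at 644, 627, 760 and 737 CPM. Sham was thus the highest library for Iglc2 and not for Iglc3. Igha was almost absent, with 4 UMIs in the B cells of sham, 1 in TAC-2w, 92 in TAC-4w and 9 in TAC-6w. Jchain had no UMI in the B cells of sham, TAC-2w or TAC-6w, which allows levels of up to 3.37, 4.49 and 2.04 CPM, and 44 UMIs in 7 of the 2452 cells of TAC-4w, or 3.59 CPM.

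**Figure D1:**
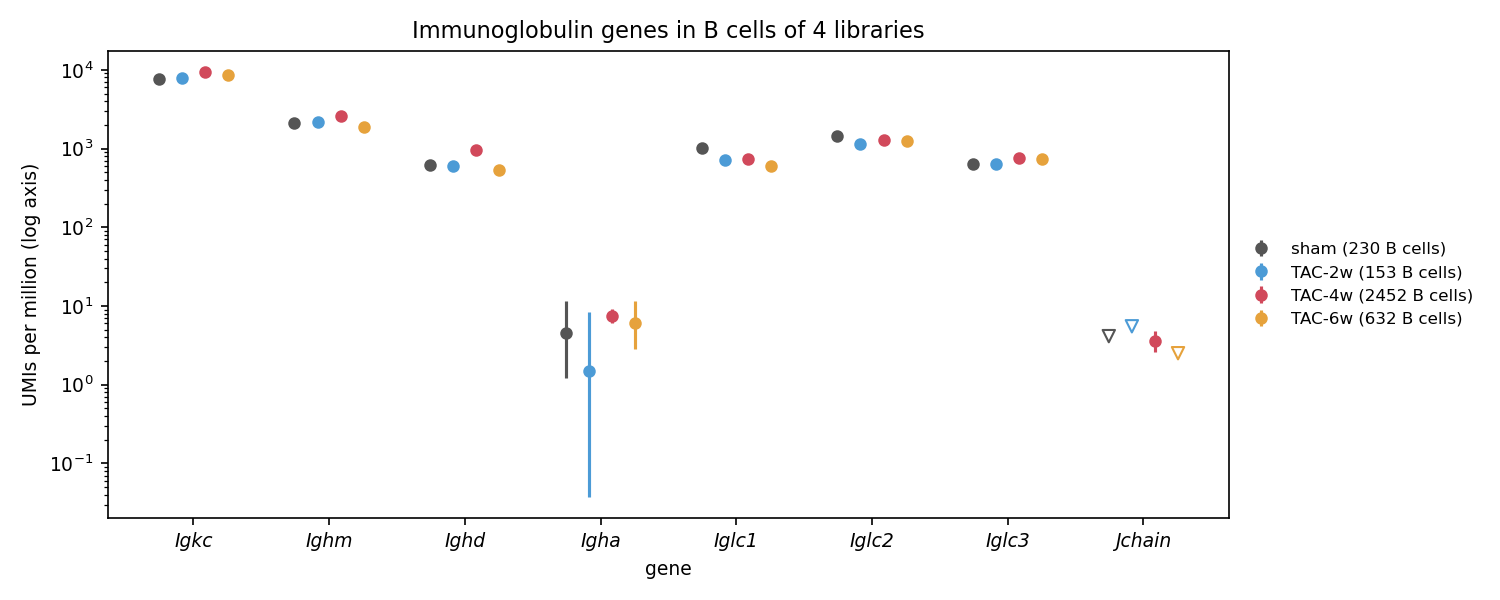
Level of each of the 8 genes in the B cells of the 4 libraries, without the very high barcodes, in CPM on a log axis. Points are sums over all B cells of a library, bars are exact Poisson 95% intervals, and open triangles mark the upper bound where no UMI was counted. The 4 libraries lie close together for the 6 well-counted genes, while Igha and Jchain lie under 10 CPM.

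The share of B cells typed as lambda was largest in sham. A cell was typed as kappa where Igkc had at least 5 UMIs and more than the 3 lambda genes together, and as lambda in the reverse case. Lambda cells numbered 31 of 230 in sham (13.5%, 95% interval 9.34 to 18.6%), 14 of 153 in TAC-2w (9.15%, 5.09 to 14.9%), 199 of 2452 in TAC-4w (8.12%, 7.07 to 9.27%) and 54 of 632 in TAC-6w (8.54%, 6.48 to 11.0%). The sham interval overlapped that of TAC-2w and TAC-6w and just cleared that of TAC-4w. Between 0 and 2.53% of the cells stayed untyped. Many lambda cells also carried kappa UMIs. At least 5 Igkc UMIs were found in 14 of 31 lambda cells of sham and 7 of 14 of TAC-2w. In TAC-4w it was 71 of 199 and in TAC-6w 17 of 54. The lambda shares therefore include cells with UMIs of both chains. In lambda cells the most abundant lambda gene was Iglc1 in 17 of 31 cells of sham, 8 of 14 of TAC-2w, 103 of 199 of TAC-4w and 24 of 54 of TAC-6w. Iglc2 led in 10, 6, 72 and 18 cells and Iglc3 in 4, 0, 23 and 11 cells.

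Kappa cells nevertheless carried lambda UMIs, and these were mainly of Iglc2 and Iglc3. Of the kappa cells, 63.6% in sham, 62.6% in TAC-2w, 78.3% in TAC-4w and 40.6% in TAC-6w held at least 5 lambda UMIs. Iglc2 made up 0.113%, 0.102%, 0.101% and 0.109% of all UMIs of the kappa cells in the same order, and Iglc3 0.0579%, 0.0639%, 0.0731% and 0.0679%. These shares lay within a narrow range. Iglc1 was lower, at 0.0360%, 0.0308%, 0.0324% and 0.0306% of the UMIs of kappa cells against 0.521%, 0.410%, 0.520% and 0.376% of those of lambda cells. In fibroblast-like cells with no B cell marker UMI, which should hold none of these genes, Iglc2 reached 0.147 CPM in sham, 0.0736 CPM in TAC-2w, 2.11 CPM in TAC-4w and 0.216 CPM in TAC-6w. The Iglc2 level of kappa cells was far above that in fibroblast-like cells of the same library. The source of the lambda UMIs in kappa cells was not tested.

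Nearly all B cells were unswitched. Ighm was detected in 229 of 230 B cells in sham, 153 of 153 in TAC-2w, 2433 of 2452 in TAC-4w and 594 of 632 in TAC-6w. Ighd was detected in 181, 128, 2265 and 414 of them. In the cells with at least 10 UMIs of Ighm and Ighd together, the median share of Ighd among these was 20.3% in 116 cells of sham, 18.2% in 87 cells of TAC-2w, 28.6% in 2088 cells of TAC-4w and 10.0% in 74 cells of TAC-6w. This cut kept few of the shallow TAC-6w cells, so these medians do not describe all B cells. Summed over all of them, Ighd had 556 UMIs beside 1865 of Ighm in sham and 405 beside 1464 in TAC-2w. In TAC-4w it had 11807 beside 31462, and in TAC-6w 783 beside 2724. Ighd exceeded Ighm in 9.13% of the cells in sham, 9.80% in TAC-2w, 11.0% in TAC-4w and 10.8% in TAC-6w. A switched cell, with at least 5 UMIs of Igha or of a gamma gene and more of it than of Ighm, was found 0 times in sham, 0 times in TAC-2w, 9 times in TAC-4w and 2 times in TAC-6w. The count of 0 allows up to 1.30% of the cells in sham and 1.96% in TAC-2w, so the switched shares of 0.367% and 0.316% in the other libraries could not have been told from it. Of the 9 switched cells of TAC-4w, 1 was switched to Igha.

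Of the genes that work with the surface antibody, none passed 2-fold either. Of 12 genes of the receptor complex, 11 were measured in TAC-2w and 12 in TAC-4w and TAC-6w, with median ratios to sham of 1.06, 1.21 and 0.942. Of all genes measured 4.86%, 13.0% and 9.89% passed 2-fold, so a count of 0 among so few genes says little about them. The highest in TAC-4w were Cr2, the complement receptor that lowers the threshold for activation, at a ratio of 1.85 (1.29 to 2.74), and Cd22, an inhibitory partner, at 1.75 (1.41 to 2.21). The lowest there were Cd81, a membrane protein of the tetraspanin family, at 0.775 (0.678 to 0.888) and Btk, a kinase downstream of the receptor, at 1.13. In TAC-2w the highest were the kinases Syk and Lyn, at 1.32 and 1.25, and the lowest Btk and Cd81, at 0.726 and 0.739. In TAC-6w they were Cr2 and Cd79a, at 1.16 and 1.13, and Blk, a kinase of the Src family, and Btk, at 0.728 and 0.761. Of 15 genes of plasma cells, 5, 12 and 8 were measured and none passed 2-fold, beside the same 4.86%, 13.0% and 9.89% of all genes. Their extremes were Sec11c at 1.05, Hsp90b1 at 0.873, Ssr4 at 0.793 and Pdia4 at 0.523 in TAC-2w, Edem1 at 1.36, Txndc5 at 1.34, Sdc1 at 0.773 and Irf4 at 0.624 in TAC-4w, and Txndc5 at 1.32, Xbp1 at 1.24, Hsp90b1 at 0.636 and Pdia4 at 0.517 in TAC-6w.

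Among 8 receptors that bind antibodies, those typical of myeloid cells were lower in the B cells of TAC-4w and TAC-6w. None of 4 measured passed 2-fold in TAC-2w, 2 of 6 were lower in TAC-4w and 3 of 5 were lower in TAC-6w, where 4.71% and 7.49% of all genes measured were lower. In TAC-4w these were Fcgr3, an activating receptor for IgG, at a ratio of 0.158 (0.113 to 0.223), and Fcgrt, the receptor that recycles IgG, at 0.409 (0.308 to 0.550). In TAC-6w they were Fcer1g, the signalling chain of such receptors, at 0.300, Fcgr3 at 0.366 and Fcgrt at 0.492. The highest were Fcer1g at 1.61 and Fcgr3 at 1.11 in TAC-2w, Pigr, which carries IgA across epithelia, at 1.68 (0.986 to 3.10) and Fcer2a, the low-affinity IgE receptor of B cells, at 1.26 in TAC-4w, and Fcer2a at 1.26 and the inhibitory Fcgr2b at 0.801 in TAC-6w. The lowest of TAC-2w were Fcgrt at 0.644 and Fcer2a at 0.988. The macrophage markers in the same cells were lower in TAC-4w and TAC-6w too, as given above, while the neutrophil markers were higher there. In the B cells without a macrophage marker UMI, Fcgr3 was at 5.13 CPM in sham, 5.22 CPM in TAC-2w, 3.38 CPM in TAC-4w and 5.87 CPM in TAC-6w, with intervals that all overlapped. Fcgrt stayed lower in those cells, at 59.8 CPM (41.7 to 83.2) in sham and 31.3 CPM (16.2 to 54.7) in TAC-2w against 26.4 CPM (23.5 to 29.6) in TAC-4w and 27.7 CPM (19.0 to 38.8) in TAC-6w. Fcer1g there was at 18.8 CPM (9.38 to 33.6) in sham, 26.1 CPM in TAC-2w, 38.0 CPM (34.5 to 41.8) in TAC-4w and 10.9 CPM (5.80 to 18.6) in TAC-6w, so that it was higher in TAC-4w than in sham. The part of macrophage or neutrophil RNA in these differences was not tested further.

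Across the libraries, 9 barcodes stood apart by having at least 500 UMIs of the 8 genes and at least 10% of their UMIs from them. Sham had 1 of 10275, TAC-2w had 0 of 7924, which allows up to 0.0379%, TAC-4w had 7 of 8420 and TAC-6w had 1 of 5854. Among the other barcodes, only those with at least 100 such UMIs were ranked by share, so smaller ones with a larger share may exist. The first of them held 141 such UMIs (5.24%) in sham, 144 (4.28%) in TAC-2w, 226 (7.90%) in TAC-4w and 100 (2.26%) in TAC-6w. By count, the highest of the other B cells held 160, 295, 890 and 139 of these UMIs from sham to TAC-6w in time order, and the one with 890 in TAC-4w was the 1 barcode with over 500 at a share below 10%. All 9 passed the filters on genes, UMIs and mitochondrial share, while the sham and the TAC-6w barcode were among those removed for a high doublet score.

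These barcodes all used kappa and had next to no Ighm, between 0 and 6 UMIs, and no Ighd. The TAC-6w barcode had 17123 UMIs, 53.0% of them from the 8 genes, with 5007 of Igkc, 3504 of Igha and 496 of Jchain. The sham barcode had 29553 UMIs, 12.8% of them from the 8 genes, with 2381 of Igkc, 1212 of Igha and 182 of Jchain, and it also carried 436 UMIs of the 6 fibroblast markers. In TAC-4w the shares ran from 17.3 to 61.3%. Of these 7, 5 carried Igha, with 1258, 1753, 1013, 1305 and 1055 UMIs, and the other 2 carried Ighg2b, the IgG2b heavy chain, with 492 and 455 UMIs. Jchain was present in all 7, at 60 to 677 UMIs, so also in those with IgG2b. The sixth TAC-4w barcode carried 276 UMIs of the neutrophil markers, and the seventh lay in the T cell-like cluster with 30 UMIs of the T cell markers.

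Of the 9, 7 met the rule for a plasma cell, which asks for at most 1 Ms4a1 UMI and at least 3 of Mzb1, Xbp1, Sdc1, Tnfrsf17, Derl3 and Prdm1. Mzb1, a chaperone of antibody assembly, had 26 to 90 UMIs in 6 of these 7 and 4 in the sham barcode. Tnfrsf17, the survival receptor BCMA, had 4 to 32 UMIs in 6 of them and 0 in the third TAC-4w barcode. The other 2 barcodes, both of TAC-4w, had no UMI of Mzb1, Sdc1, Tnfrsf17 or Derl3. They did hold Xbp1, at 1 and 2 UMIs, and Prdm1, at 2 and 3 UMIs. With fewer than the 3 genes that the rule asks for, these barcodes are left unnamed. They had 7367 and 6750 UMIs in 967 and 1026 genes. The members made up 61.3 and 50.2% of these UMIs, against 53.0% in the TAC-6w barcode, which met the rule. Such shares leave out Ighg2b.

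Each of the 9 barcodes had its own pair of leading heavy and kappa variable genes, in some on very few UMIs. Variable genes recombine once in each B cell lineage, so they mark a lineage, although the kits named in the sources differ between one that reads the 3′ end and one that reads the 5′ end, where the variable part lies, and their counts were low. The TAC-6w barcode had 94 of 96 heavy variable UMIs from Ighv1-81 and 78 of 79 kappa variable UMIs from Igkv1-110. Of the TAC-4w barcodes, the fourth had Ighv9-3 (19 UMIs) with Igkv1-110 (46 of 56 UMIs), and the fifth had Ighv1-81 (13 UMIs) with Igkv9-120 (10 UMIs). These 2 shared a light or a heavy variable gene with the TAC-6w barcode, and neither shared both. The remaining pairs were Ighv1-64 with Igkv4-59, Ighv3-6 with Igkv16-104, Ighv1-54 with Igkv17-121, Ighv1-85 with Igkv10-96 and Ighv6-6 with Igkv8-30 in TAC-4w, and Ighv1-75 with Igkv14-100 in sham. In these the heavy gene had 1 to 11 UMIs and the kappa gene 9 to 33 UMIs, and in the first and second TAC-4w barcodes the heavy gene rested on 1 and 2 UMIs. The lambda variable gene Iglv1 was also counted, with 11 UMIs in the third TAC-4w barcode, above the 9 of its leading kappa gene, 12 in the fourth, 7 in the fifth and 11 in the TAC-6w barcode, and 0 to 2 in the others.

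Almost all Igha of the libraries lay in these few barcodes. They held 96.4% of the Igha UMIs of the sham library, 97.1% of those of TAC-4w and 99.2% of those of TAC-6w, and 96.3%, 97.7% and 99.4% of the Jchain UMIs. The TAC-2w library, which had none of them, held 2 Igha UMIs in all. Of the Igkc UMIs they held 22.9%, 16.2% and 22.0%, and the other B cells held 64.8% in sham, 86.5% in TAC-2w, 77.6% in TAC-4w and 56.1% in TAC-6w. In TAC-6w a further 16.1% of Igkc lay in 304 cells of B-like clusters with fewer than 5 marker UMIs.

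**Figure D2:**
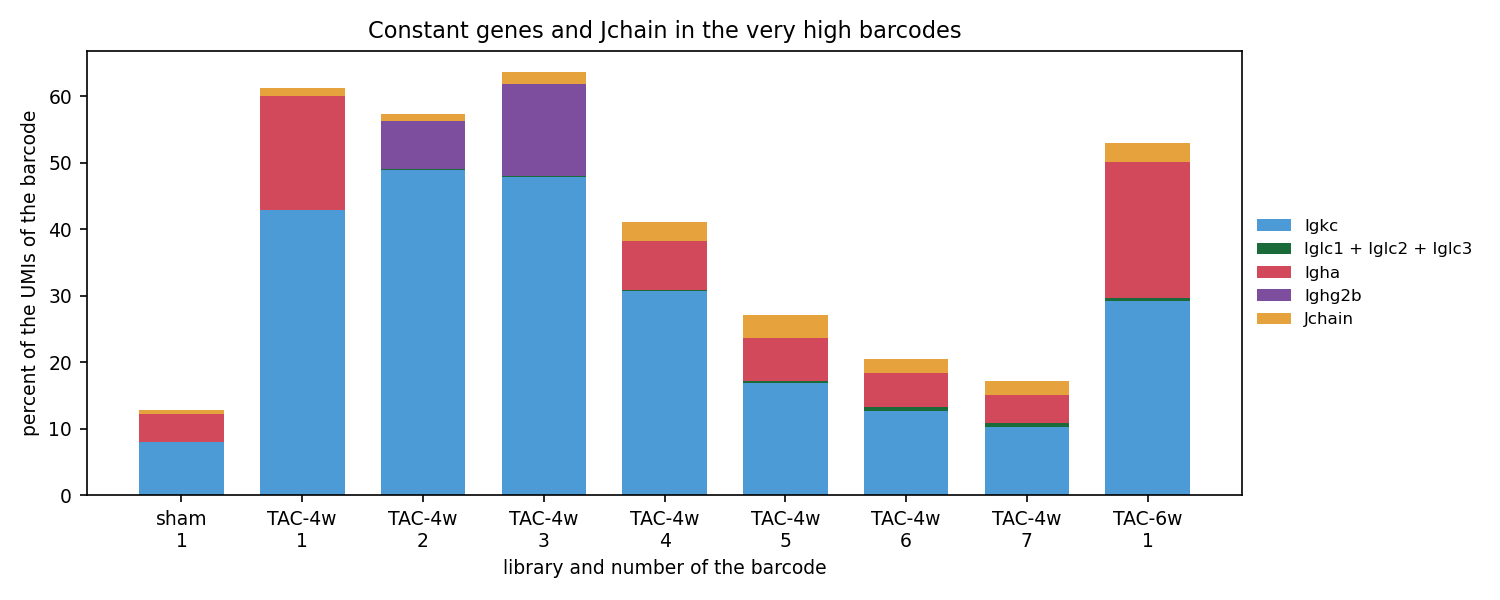
Share of the UMIs of each very high barcode that came from Igkc, the 3 lambda genes, Igha, Ighg2b and Jchain, stacked, in percent. Each bar is 1 barcode, numbered within its library. In TAC-4w, 5 of the 7 barcodes, and those of sham and TAC-6w, show Igha beside Igkc, and TAC-4w barcodes 2 and 3 show Ighg2b instead.

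Outside B cells, Ighm and Igkc had unlike distributions. These values are from kept cells with no UMI of Cd79a, Cd79b or Ms4a1. Ighm reached 171 CPM in the macrophage-like cells of sham, 182 CPM in TAC-2w, 129 CPM in TAC-4w and 159 CPM in TAC-6w. In fibroblast-like cells it was at 0.985, 0.883, 8.82 and 1.08 CPM in the same order. That level serves for comparison, and whether it was free RNA was not tested. Igkc, by contrast, was at 2.29, 0.553, 36.2 and 5.72 CPM in macrophage-like cells and at 1.34, 0.785, 22.6 and 3.14 CPM in fibroblast-like cells. The ratio of Ighm to Igkc UMIs was 0.277 in the B cells of sham, 0.278 in TAC-2w, 0.275 in TAC-4w and 0.214 in TAC-6w. It was 74.8 (95% interval 50.1 to 117) in the macrophage-like cells of sham, 330 (160 to 821) in TAC-2w, 3.57 (2.44 to 5.36) in TAC-4w and 27.7 (17.6 to 46.4) in TAC-6w. In fibroblast-like cells it was between 0.345 and 1.13, and all of these intervals lay below those of the macrophage-like cells of the same library.

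Depth was set equal to compare shares of cells. An Ighm UMI was found in 55.0% of the macrophage-like cells of sham, 63.1% of TAC-2w, 51.1% of TAC-4w and 37.4% of TAC-6w, whose median depths were 7212, 8840, 6650 and 3627.5 UMIs. When each cell was thinned to 1000 UMIs the shares were 15.3% (13.4 to 17.3%), 16.9% (15.0 to 19.1%), 14.0% (8.48 to 21.2%) and 14.7% (12.4 to 17.3%), which do not differ beyond their intervals. In fibroblast-like cells, with medians of 10545, 12562.5, 13784 and 6188 UMIs, 1.02%, 1.13%, 11.1% and 0.638% had an Ighm UMI, and after thinning 0.137%, 0%, 0.273% and 0.143%. Cells too shallow for the thinning were left out, which was 21, 11, 2 and 38 of the macrophage-like and 35, 31, 2 and 29 of the fibroblast-like cells.

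The macrophage-like cells with Ighm held few other immunoglobulin UMIs in 3 of the libraries and more in TAC-4w. In sham, the 773 such cells held 1796 Ighm UMIs, 16 of Ighd, 14 of Igkc, 0 of the lambda genes, 0 of heavy variable genes and 1 of kappa variable genes. In TAC-2w, 863 cells held 2307 Ighm UMIs, 18 of Ighd, 5 of Igkc and 0 of heavy variable genes. In TAC-4w, 67 cells held 125 Ighm UMIs, 1 of Ighd, 20 of Igkc and 0 of heavy variable genes, and in TAC-6w 322 cells held 527 of Ighm, 2 of Ighd, 3 of Igkc and 0 of heavy variable genes. Cells with both Ighm and Igkc numbered 13 of 773, 5 of 863, 17 of 67 and 3 of 322. Shares of the whole library were taken over all macrophage-like cells with under 5 B cell marker UMIs, a wider set than the cells with none. These held 37.1% of all Ighm UMIs of the sham library, 49.9% of TAC-2w, 0.454% of TAC-4w and 12.7% of TAC-6w.

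Several other blood-derived classes also carried Ighm above the fibroblast level. In T cell-like cells it was at 120 CPM in sham, 150 CPM in TAC-2w, 177 CPM in TAC-4w and 136 CPM in TAC-6w. Beside 68, 103, 335 and 25 UMIs of Ighm in time order, these cells had 0, 1, 99 and 1 UMIs of Igkc. Dendritic-like cells had 87.1, 103, 139 and 52.3 CPM, neutrophil-like cells 63.7, 59.8, 66.7 and 50.8 CPM and NK-like cells 49.1, 86.2, 68.3 and 36.0 CPM of Ighm in the same order. Endothelial-like cells lay nearer to the fibroblast-like cells than to these classes, as the plot of both genes by cell class shows. Their larger cluster was at 4.48 CPM of Ighm in sham and 4.05 CPM in TAC-2w. Dividing cells had 125 and 165 CPM in these 2 libraries. Cardiomyocyte-like cells had 18.1 and 2.94 CPM there, and smooth muscle or pericyte-like cells 9.51 and 0.871 CPM.

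**Figure D3:**
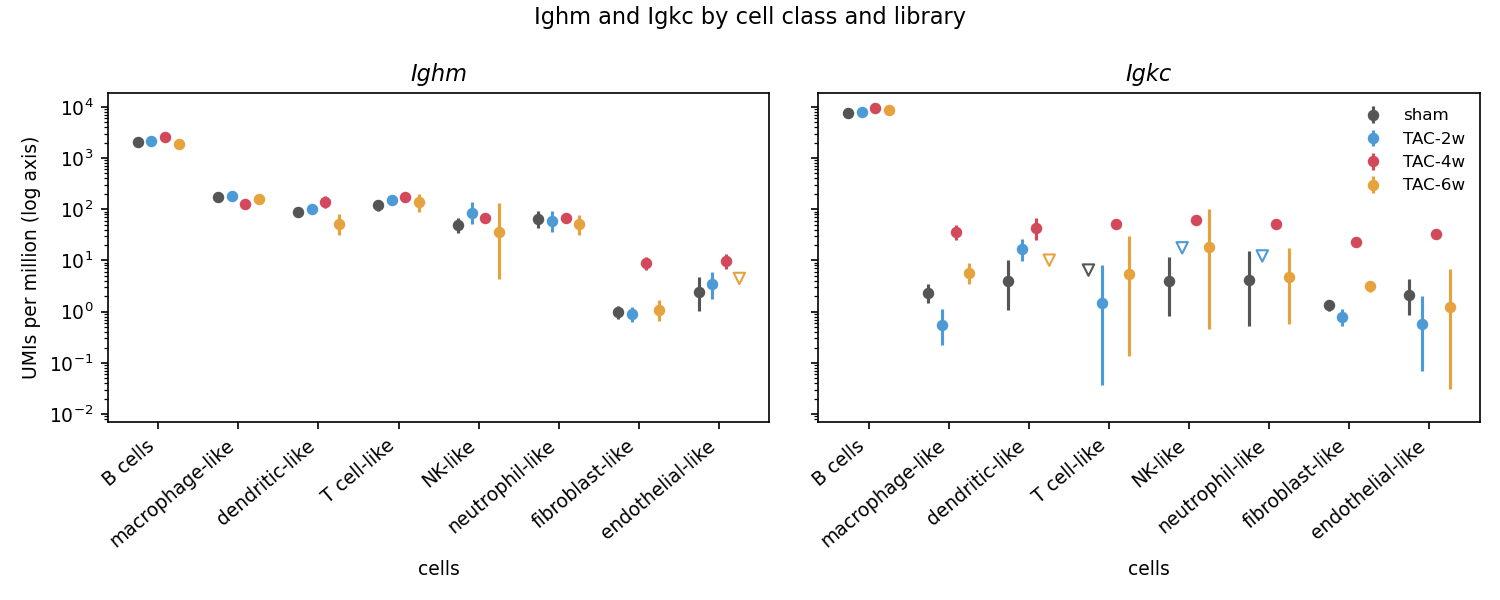
Ighm (left) and Igkc (right) by cell class and library, in CPM on a log axis, for B cells and for cells of other classes with no B cell marker UMI. Bars are exact Poisson 95% intervals and open triangles mark the upper bound where no UMI was counted. Ighm stands between 36.0 and 182 CPM in the 5 plotted blood-lineage classes other than B cells in every library, whereas Igkc was highest in TAC-4w in each plotted class. Red blood cell-like, platelet-like, dividing, cardiomyocyte-like, smooth muscle or pericyte-like and unnamed cells are not plotted.

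The Igkc found in fibroblast-like cells ranked the libraries in the same order as their share of B cells did. It was at 1.34 CPM in sham, 0.785 CPM in TAC-2w, 22.6 CPM in TAC-4w and 3.14 CPM in TAC-6w, while Igkc in the library as a whole was at 120, 77.5, 3052 and 790 CPM. The former was 1.12%, 1.01%, 0.742% and 0.397% of the latter. Against sham, the fibroblast level was 16.9 times higher in TAC-4w (12.3 to 23.3) and 2.34 times in TAC-6w (1.61 to 3.39), where 4.98% and 1.93% of all genes measured were at least 2 times higher, and its ratio was 0.585 in TAC-2w. Igkc was the 1 member with enough UMIs to be measured there. In TAC-4w 26.1% of the fibroblast-like cells had an Igkc UMI, against 1.43% in sham, and no cell held more than 3. The source of this Igkc was not tested.

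In the heart sections the 8 genes were scarce, with 420 UMIs in sham, 791 in TAC-2w, 1535 in TAC-4w and 1130 in TAC-6w. That is 16.2, 16.2, 48.1 and 23.4 CPM. At least 1 UMI was found in 14.4% of the spots of sham, 18.9% of TAC-2w, 29.6% of TAC-4w and 24.9% of TAC-6w. The ratio to sham was 1.00 (0.891 to 1.13) in TAC-2w, 2.97 (2.67 to 3.32) in TAC-4w and 1.45 (1.29 to 1.62) in TAC-6w. A section cannot tell more cells from more RNA per cell, and most of the excess of TAC-4w and TAC-6w lay in a handful of spots. With the focal spots described in the following left out, the ratios were 0.761 (0.664 to 0.872), 1.30 (1.13 to 1.48) and 1.16 (1.02 to 1.32). TAC-2w, level with sham over all spots, was thus lower without them. The cut for a focal spot follows the level of its section, at 162 CPM in sham and 481 CPM in TAC-4w. These ratios therefore leave out unlike spots.

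A spot was called focal where it held at least 10 UMIs of the 8 genes and at least 10 times the level of its section, and focal spots that touched were joined into a patch. There were 2 focal spots in 1 patch in sham, 4 in 2 patches in TAC-2w, 10 in 2 patches in TAC-4w and 11 in 2 patches in TAC-6w. They held 13.3%, 34.4%, 62.4% and 30.7% of the UMIs of the 8 genes in their section. The lowest focal spots held 11, 15, 14 and 10 UMIs, and the highest spots that were not focal held 9, 8, 12 and 8. By definition these spots are high. The rule also bears on their make-up, since the 8 genes include Igha and Jchain but no gamma gene. A spot with IgG thus had to pass without the UMIs of its heavy chain.

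**Figure D4:**
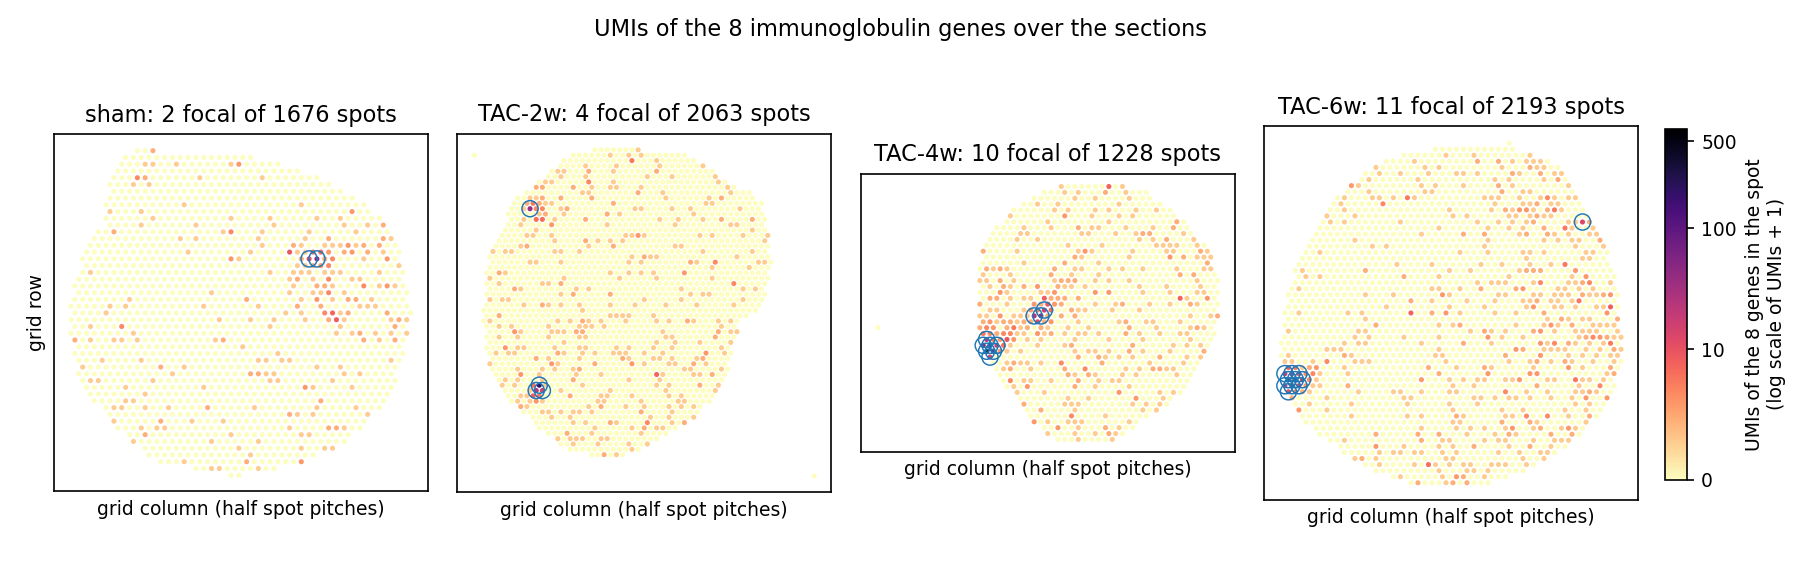
UMIs of the 8 genes in each spot of the 4 sections, drawn on the spot grid on a log colour scale, with focal spots circled in blue. The sham section has 2 focal spots, TAC-2w 4, TAC-4w 10 and TAC-6w 11, gathered into small patches.

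Each patch was led by 1 light chain and 1 heavy chain. The sham patch held 50 UMIs of Igkc and 50 of Ighg1, the IgG1 heavy chain, with none of Igha and 5 of Jchain. Ighg1 had 143 UMIs in the sham section and none in the 3 TAC sections, which allows up to 0.0615, 0.0939 and 0.0621 CPM. In TAC-2w the larger patch of 3 spots held 111 UMIs of Igkc, 111 of Igha and 12 of Jchain, and the smaller, a single spot, held 17, 18 and 3. All UMIs of the 8 genes in both were thus kappa, alpha or joining chain.

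TAC-4w had the strongest patch and the 1 patch led by lambda. Its 7 spots held 415 UMIs of Iglc1, 409 of Igha and 51 of Jchain, and none of Igkc, which allows Igkc up to 0.343% of these 875 UMIs. Its top spot alone held 591 UMIs, with 299 of Igha, 263 of Iglc1 and 29 of Jchain, out of 38891. The second TAC-4w patch, of 3 spots, held 32 UMIs of Igkc, 45 of Igha and 5 of Jchain, so the patches of 1 section differed in light chain. In TAC-6w a patch of 10 spots held 163 UMIs of Igkc, 136 of Igha and 33 of Jchain. The other TAC-6w patch was a single spot with 7 UMIs of Igkc, 5 of Ighm and none of Igha or Jchain, and 2 of its UMIs were of the B cell markers. It was the 1 patch in which Ighm was the heavy chain.

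**Figure D5:**
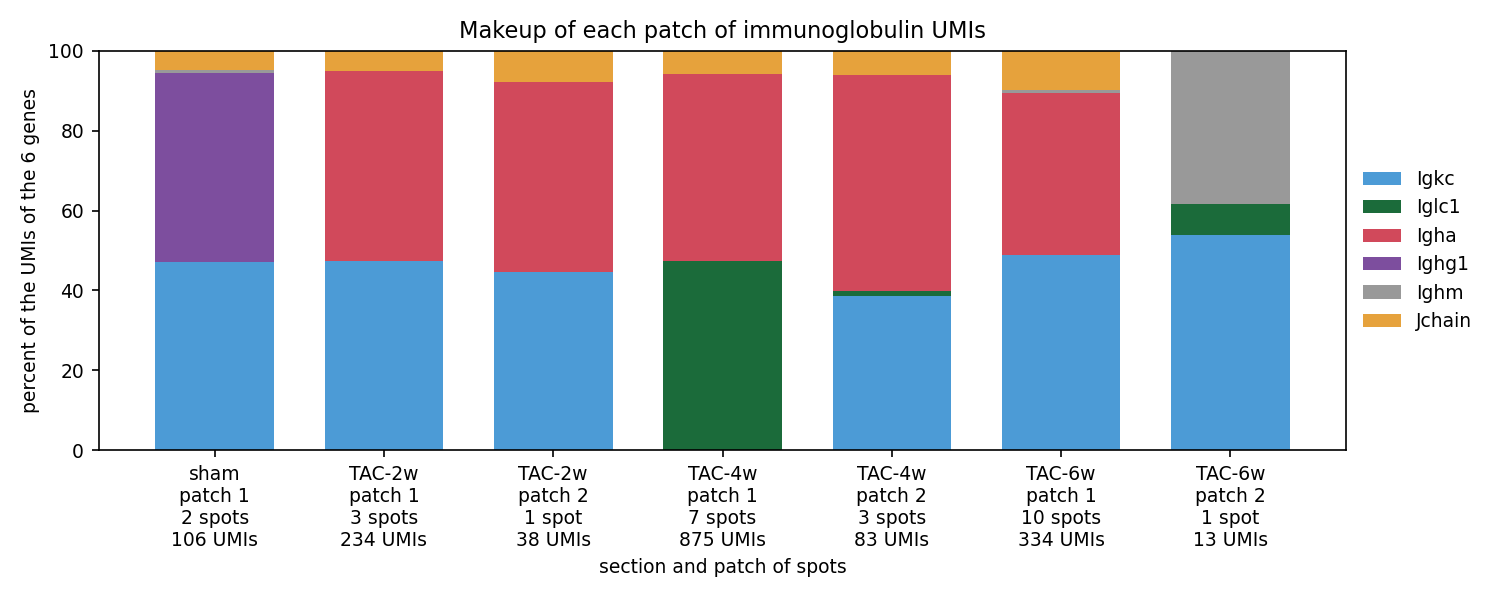
Make-up of the 7 patches of focal spots, as the percent of the summed UMIs of Igkc, Iglc1, Igha, Ighg1, Ighm and Jchain, with the number of spots and of UMIs under each bar. Igha appears in 5 patches, of which TAC-4w patch 1 pairs it with Iglc1 and the others with Igkc. The sham patch shows Ighg1 and the second TAC-6w patch Ighm.

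The signal fell off steeply around the top spot of a patch. In the lambda patch of TAC-4w the level of the 8 genes was 15196 CPM in the top spot, 3793 CPM in the ring of spots next to it, 411 CPM in the second ring, 115 CPM in the third and 86.0 CPM in the fourth. Igha and Iglc1 were both present in every ring, and Igkc was absent up to the third. In the large TAC-6w patch the levels were 6562, 1121, 373, 59.5 and 38.4 CPM, in the larger TAC-2w patch 5689, 366, 56.7, 17.4 and 21.7 CPM, and in the sham patch 1868, 235, 84.5, 39.8 and 50.7 CPM. Even the fourth ring of the lambda patch stood above the section level of 48.1 CPM, with a lower bound of 55.7 CPM. The fourth ring of the sham patch also did so, with a lower bound of 32.5 CPM against a section level of 16.2 CPM. In the second TAC-6w patch the fall was immediate, from 315 CPM to 11.2 CPM in the first ring.

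Markers of B cells and plasma cells had few UMIs in the patches and in the sections as a whole. The 3 B cell markers together had 2 UMIs in the focal spots of sham, 0 in TAC-2w, 0 in TAC-4w and 3 in TAC-6w, of 34, 49, 50 and 94 in the whole sections. Mzb1, Tnfrsf17 and Derl3, which mark plasma cells, together had 0, 4, 0 and 0 UMIs in the focal spots, of 20, 31, 24 and 28 in the whole sections. The 4 UMIs of TAC-2w thus lay in 0.194% of its spots, and the 2 B cell marker UMIs of sham in 0.119% of its spots. Of the genes of the plasma cell rule, Xbp1, Sdc1 and Prdm1 are not in that sum. Xbp1 was found in focal spots of each TAC section, with at most 4 UMIs in a spot in TAC-2w and 2 in TAC-4w and TAC-6w. Sdc1 had 1 UMI in some focal spots of TAC-6w, and Prdm1 had none in any focal spot. Variable genes had at most 2 UMIs in a focal spot. Iglv1, the variable gene that joins Iglc1, gave the only ones in the lambda patch, with 2 and 1 UMIs in 2 of its spots, and Igkv1-110 gave 1 UMI in each of 2 spots of the larger TAC-2w patch. Of the focal spots, 4 of the 10 of TAC-4w and 4 of the 11 of TAC-6w lay at the edge of the tissue, having fewer than 6 neighbours, and none of those in sham or TAC-2w did. Of all spots, 8.95%, 8.24%, 10.3% and 7.66% were edge spots. In TAC-4w and in TAC-6w the focal edge spots all belonged to 1 patch, the larger of the section. They touch or lie close together and are not separate observations, so no preference for the edge is drawn from them.

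Among the members, Igha was higher than sham in all 3 TAC sections. It had 16 UMIs in sham, 181 in TAC-2w, 582 in TAC-4w and 207 in TAC-6w, or 0.615, 3.71, 18.2 and 4.29 CPM. TAC-4w was above the other two TAC sections. The ratios to sham were 6.03 (3.61 to 10.8), 29.6 (18.1 to 52.1) and 6.96 (4.19 to 12.4), and without the focal spots 1.73 (0.974 to 3.25), 6.54 (3.88 to 11.8) and 2.40 (1.38 to 4.42). A single spot held 55.2% of the Igha of TAC-2w, 51.4% of that of TAC-4w and 20.3% of that of TAC-6w. The TAC-2w section, which had Igha in 41 spots, came from the condition whose cell library held 2 Igha UMIs.

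Iglc1 lay mostly in 1 patch of TAC-4w. It had 1 UMI in sham, 3 in TAC-2w, 491 in TAC-4w and 4 in TAC-6w, and 416 of the 491 were in focal spots. The ratio of TAC-4w to sham was 400 (71.4 to 15815), which rests on a single sham UMI. Without the focal spots 75 UMIs were left in TAC-4w, and the ratio was still 61.3 (10.7 to 2454), on the same sham UMI. Iglc2 had 1, 7, 4 and 12 UMIs and Iglc3 3, 7, 4 and 11 UMIs in the same order, so the other lambda genes did not share in the TAC-4w signal. Jchain had 22, 27, 76 and 44 UMIs, with a ratio of 2.81 (1.73 to 4.75) in TAC-4w that became 0.962 (0.479 to 1.96) without the focal spots.

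Igkc had 203 UMIs in sham, 260 in TAC-2w, 144 in TAC-4w and 349 in TAC-6w, or 7.81, 5.33, 4.51 and 7.23 CPM. The intervals of sham and TAC-6w overlapped, and those of TAC-2w and TAC-4w overlapped each other and lay below. Without focal spots its ratio to sham was 0.460 (0.362 to 0.585) in TAC-2w, 0.599 (0.465 to 0.769) in TAC-4w and 0.632 (0.506 to 0.789) in TAC-6w. In the cell libraries as a whole, Igkc was at 120 CPM in sham and 3052 CPM in TAC-4w, so for TAC-4w the library and the section went opposite ways. For TAC-2w both were below sham, with 77.5 CPM in the library. For TAC-6w the library was above sham, at 790 CPM, while the intervals of the sections overlapped. The source of the TAC-4w difference was not tested.

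Ighm was spread thinly over all sections and hardly took part in the patches. It had 168 UMIs in sham, 277 in TAC-2w, 212 in TAC-4w and 456 in TAC-6w, or 6.46, 5.68, 6.64 and 9.44 CPM, in 136, 236, 181 and 361 spots. No spot held more than 5. The focal spots held 1, 0, 0 and 7 of these UMIs. Its level in TAC-6w was above the other 3, whose intervals overlapped, with a ratio to sham of 0.879 (0.723 to 1.07), 1.03 (0.835 to 1.27) and 1.46 (1.22 to 1.75) in time order. Ighd had 6, 29, 22 and 47 UMIs, so that sham was the lowest, with ratios of 2.58, 2.98 and 4.22 whose intervals began at 1.05, 1.17 and 1.80. Among the gamma genes, Ighg2c, the IgG2c heavy chain, was spread like Ighm, with 94, 23, 47 and 106 UMIs and at most 2 in a spot, and its ratio to sham was 0.130 (0.0789 to 0.208) in TAC-2w, within 1 batch label.

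Of the members with at least 50 UMIs in either section, 1 of 3 was at least 2 times higher than sham in TAC-2w (Igha), 3 of 5 in TAC-4w (Igha, Iglc1 and Jchain) and 1 of 3 in TAC-6w (Igha), where 0.657%, 5.28% and 4.66% of all genes measured were. Igha, Iglc1 and Jchain reached the minimum through the TAC section alone, so that they had to differ, and no weight is put on these counts.

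The genes whose levels ran most like the sum of the 8 across kept cells were Cd79a, Cd79b, Fcmr, the receptor for IgM, Ly6d and H2-Ob. Likeness was the lowest Pearson r over the 4 libraries, on log-normalized levels over 5399 to 7965 cells, and it was 0.774, 0.728, 0.691, 0.651 and 0.638. Ms4a1 reached 0.589 and Mzb1 0.528, whereas Xbp1 was at -0.304. Across spots the same measure was near 0. It was highest for Cd79a (0.0538), Cd79b (0.0527), the translation factor Eif3b (0.0413), the haemoglobin gene Hba-a1 (0.0371) and Fcmr (0.0366), over 1228 to 2193 spots that share library and depth. At such sparse counts these values are no finding.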

How the data were processed

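The 4 cell libraries and 4 sections were analysed from UMI counts per gene and barcode, which the authors made against mm10 and deposited without normalization, for barcodes called as cells and for spots over tissue. The file headers name cellranger 6.0.0 and spaceranger 1.2.0, while the submitters' processing notes name Cell Ranger 7.0.0 and Space Ranger 1.3.1. The series text names a 3′ v3.1 kit and a heading of the methods a 5′ kit, which bears on variable gene reads.

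Cells were kept, as the methods state, with 200 to 6000 genes, 500 to 30000 UMIs and under 15% mitochondrial UMIs. The 3.2% with the highest Scrublet scores, at an expected rate of 7%, were removed per library. Clusters (22, Leiden resolution 0.5, log-normalized to 10000 counts, immunoglobulin genes left out) were named from 6 markers per type. Clusters with too few markers or with leading genes of another type stayed unnamed. Levels outside B cells were read in cells with no B cell marker UMI and under 10% of UMIs from the members, also thinned to 1000 UMIs. All spots were kept. Levels are sums per 1000000 UMIs.

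Intervals of 95% are exact Poisson for sums, exact conditional binomial for ratios and Clopper-Pearson for shares, and a count of 0 was given the limit of 3 counts. The ratio interval was tested on simulated data. Members past a 2-fold ratio were counted over the genes whose larger sum reached 50 UMIs. The genes named are the 8 members, the other heavy constant genes that were counted, the leading variable genes of each very high barcode, the 2 highest and 2 lowest of each list and the 5 most alike genes. The members and lists were chosen with earlier results of these data known. Alternatives varied the marker, light chain and focal thresholds, the filters, doublet removal, averaging, the cells and spots counted and the features in the total. Leaving out the very high barcodes and the highest patch was added after the data were seen. The tools were scanpy 1.11.5, matplotlib 3.10.9, scikit-learn 1.9.0, pandas 2.3.3, scipy 1.17.1 and numpy 2.4.6 under Python 3.11.15.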

Additional observations from a re-analysis of the deposited data

How the results depend on the processing

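No paired analysis was possible because each condition had 1 library and 1 section. Of 67 alternatives for sums and counts, 33 left a value about the same, 31 moved it and 3 turned a ratio to sham. About the same meant within the counting interval or, for numbers of very high barcodes and focal spots, which have none, within a fixed factor. For levels in B cells, the values compared with counted the very high barcodes, which the levels given earlier leave out. The alternatives for these levels counted them too unless stated. For the 8 genes in B cells the ratios of TAC-2w, TAC-4w and TAC-6w were 0.903, 1.21 and 1.09 with at least 10 marker UMIs, 0.763, 1.20 and 1.22 with no doublet removal, 0.765, 1.20 and 1.26 with no filter, and 0.945, 1.11 and 0.977 as means over cells. Without the very high barcodes TAC-4w was at 1.17. Keeping doublets, which among others adds the very high barcode of sham to its B cells, turned Igkc in TAC-2w (0.787, with no filter 0.788), Igha in TAC-4w (0.384 and 0.390) and Iglc2 in TAC-4w (1.06 and 1.07) and, with no filter, Iglc2 in TAC-6w (1.001). At 10 marker UMIs Igkc in TAC-2w turned to 0.945 and Ighm in TAC-6w to 1.03. The cause was not tested.

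In cells other than B cells, only fibroblast-like cells gave ratios of 0.655, 12.6 and 1.75 for the 8 genes, 16.9 for Igkc in TAC-4w, and 0.897 and 1.10 for Ighm in TAC-2w and TAC-6w. These turned the ratios of TAC-2w and TAC-6w. The setting left out macrophage-like cells with their Ighm and all other classes at once, and the part of each class was not tested. Cells with under 5 marker UMIs gave 2.98 for TAC-4w and 1.09 for TAC-6w, which turned the latter, and 6.56 for Igkc in TAC-6w. In sections the 8 genes were at 0.859, 2.49 and 1.26 without mitochondrial and ribosomal-RNA-like features, 0.761, 1.30 and 1.16 without focal spots, and 0.816, 1.48 and 1.18 without the highest patch. As means over spots TAC-4w was at 3.69 and TAC-6w at 1.74. Jchain in TAC-4w turned to 0.962 without focal spots. A share of 20% left 0 very high barcodes in sham, and 20 UMIs per spot left 1 focal spot in sham and 3 in TAC-6w. Depth limits Igha, Jchain and Ighd in sections, and shares of switched cells in sham and TAC-2w.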
